A study of Bos taurus with 9 samples.

Results

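The genes described here are the 200 abundant genes whose level differed most between single pools of bovine blastocysts, out of 27607 genes counted. They were chosen from the counts themselves. CPM (counts per 1000000 counts of the library) is not corrected for gene length. The 4030 genes with a mean of at least 50 CPM over 9 libraries were taken. Of these, 225 were left out because all 6 Nanuq and Cryotop libraries lay above, or all below, the 3 CTR libraries. The remaining 3805 were ranked by the ratio of their highest CPM + 1 to their lowest CPM + 1, and the top 200 were kept. The ratios, and anything else read from the same 9 values, therefore describe the choice and were not tested.

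Messenger RNA was sequenced from embryos of Bos taurus that had hatched from their zona pellucida. A control labelled CTR and groups named for the cooling devices Nanuq and Cryotop gave 3 libraries each, every library from a pool of 5 to 10 embryos. All pools were described as collected within 24 h after thaw. The study compared a standard and an ultrafast cooling rate. The sources used here do not say which device gave which rate or whether CTR embryos were cooled. Nor do they give breed, embryo age or embryo sex, or say if the pools were independent productions of embryos, so the spread between pools may be partly technical. Pooling also limits what can be seen, since 1 library gives a mean over its embryos and shows nothing of a single one.

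A blastocyst has an outer epithelium, the trophectoderm, which pumps fluid into the cavity and later contributes to the placenta. It encloses the inner cell mass, from which the epiblast and the hypoblast arise. In cattle, trophectoderm outgrows the inner cell mass in the days after hatching, and it secretes interferon tau, the signal by which the cow recognises pregnancy. RNA from such a pool is thus a mixture over cell types and over embryos. Fewer cells of a type and less RNA per cell cannot be told apart in it. The deposited table names genes by Ensembl identifier only, and 0 of these could be paired with a symbol. No function is stated for any gene below, and the tissue label was not checked against markers of these cell types.

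Total counts ran from 3970666 in Cryotop 1 to 25745731 in CTR 2, where the number after the group is the replicate. The other 7 libraries lay between 16343398 and 22529555. When every library is brought to the total of the smallest, Cryotop 1 and Cryotop 3 would show 12104 and 12409 genes, and the other 7 between 13577 and 15002. The part of this in the results below was not tested.

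The 200 genes differed at least 2.42-fold between their highest and their lowest pool. Their median ratio was 2.71, against 1.58 for the 3605 genes that were ranked and not chosen. For 56 genes the ratio was 3 or more, for 18 it was 4 or more, and for 9 it was 5 or more. A difference of at least 2-fold was not rare among abundant genes, since 628 of those ranked (16.5%) reached it. The end of the list is not a natural break. The last genes inside, ENSBTAG00000045939 and ENSBTAG00000018852, had ratios of 2.43 and 2.42. The first outside, ENSBTAG00000003222 and ENSBTAG00000047186, each had 2.42.

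No member had a count of 0 in any library. The lowest count behind any gene's lowest value was 43, and the median such count was 673.5. At the median count of the 200 genes, counting error alone would give a coefficient of variation of 5.87% in Cryotop 1 and of 2.28% to 2.84% in the other 8 libraries. That median count was 290 in Cryotop 1, and counting error is larger for members with fewer counts there, down to 43. The coefficients cover counting error only, because no molecular identifiers were used and amplified copies count more than once.

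The 200 genes were on the whole of moderate count. Their mean CPM had a median of 71.9, against 107 for the other ranked genes. Of the 200, 145 (72.5%) averaged under 100 CPM, against 46.0% of the others, and 13 (6.50%) averaged 200 CPM or more, against 24.2%. Ensembl gives higher numbers to gene models added later. Identifiers above 48000, a limit chosen after the values were seen, made up 15 of the 200 (7.50%) and 100 of the 3605 other genes (2.77%). The 3 genes with the largest ratios were all among the 15. How reads that fit several near-identical genes were counted is not stated, so values of any such genes are uncertain. Whether the 15 include such genes was not tested.

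The extremes were concentrated in CTR 2, Cryotop 1 and Cryotop 3. CTR 2 held the highest value for 61 genes and the lowest for 46. Cryotop 3 was highest for 52 genes and lowest for 41. Cryotop 1 was highest for 35 genes and lowest for 56. At the other end, Nanuq 3 and Cryotop 2 each held the highest value for 2 genes and the lowest for 8. Only 14 genes (7%) had neither extreme in the 3 libraries named first, and 105 (52.5%) had both there. Among the 3605 other ranked genes the shares were 18.6% and 26.4%. These 3 libraries were singled out after the values were seen.

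**Figure D1:**
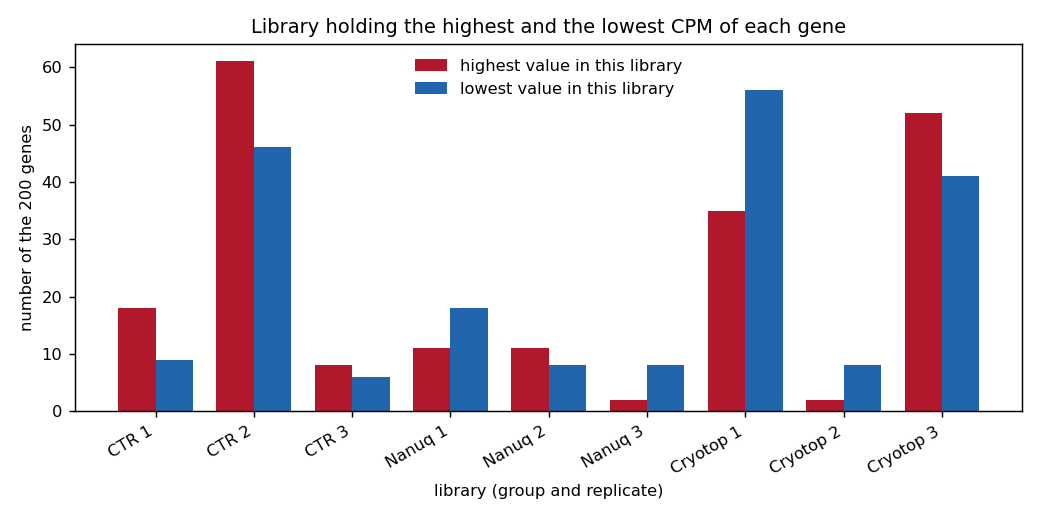
Number of the 200 genes (vertical axis) whose highest CPM (red bars) or lowest CPM (blue bars) over 9 libraries falls in each library (horizontal axis). CTR 2, Cryotop 1 and Cryotop 3 have the tallest bars of both colours, from 35 to 61 genes.

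The pools stood opposite each other in a few recurring pairs. The most frequent pair was Cryotop 3 highest with CTR 2 lowest, in 29 genes. CTR 2 was highest and Cryotop 1 lowest in 23 genes. In 17 genes Cryotop 1 was highest and Cryotop 3 lowest, so that both extremes came from the same group. CTR 2 was highest with Cryotop 3 lowest in 15 genes, and with Nanuq 1 lowest in another 15. Both extremes lay within a single group for 43 of the 200 genes (21.5%), and for 24.4% of the other ranked genes.

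Distances from each gene's own median over the 9 libraries gave the same picture. The median distance over the 200 genes was 0.47 on the log2 scale in CTR 2, 0.48 in Cryotop 1 and 0.47 in Cryotop 3. In the other 6 libraries it was 0.13 to 0.20. The 3605 other ranked genes were farther from their medians in the same libraries, at 0.18, 0.18 and 0.17, against 0.08 to 0.12 in the other 6. Genes at least 2-fold from their own median numbered 29 in Cryotop 1, 26 of them low, and 22 in Cryotop 3, 19 of them low. In CTR 2 there were 18 such genes, 10 high and 8 low.

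**Figure D2:**
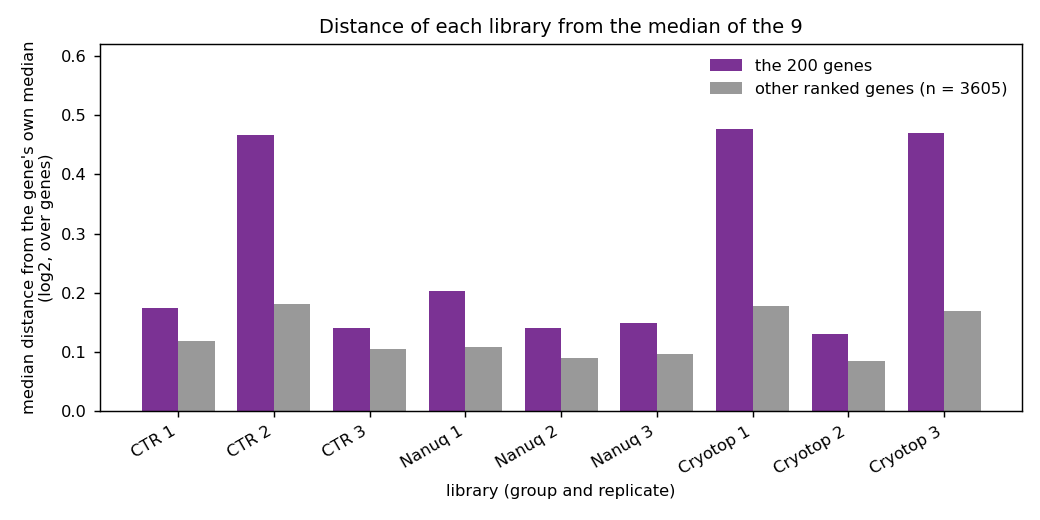
Median distance of each library from the gene's own median over 9 libraries (vertical axis, log2 scale) for the 200 genes (purple bars) and the 3605 other ranked genes (grey bars). The 3 purple bars at 0.47 to 0.48 are CTR 2, Cryotop 1 and Cryotop 3, and the grey bars are also tallest there.

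For a minority of the genes, most of the log2 range was set by a single library. In 34 genes (17%) more than 50% of the log2 range lay between the lowest library and the next, and in 5 genes (2.50%) between the highest and the next. The single low library was Cryotop 1 for 15 genes, Cryotop 3 for 12 and CTR 2 for 7, and the single high library was CTR 2 for all 5. The other 161 genes were spread over more pools. Among the other ranked genes 5.77% had a single low library and 2.66% a single high one. Without its highest library a gene's ratio had a median of 2.32, and 152 genes still reached 2-fold. Without its lowest library the median was 2.01, and 101 genes did. The smallest ratio in the list, 2.42, was still met by 74 genes without their highest library and by 43 without their lowest. For 22 genes it was met either way, and 105 fell under it both ways.

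Over the 6 libraries other than CTR 2, Cryotop 1 and Cryotop 3, the median ratio of the 200 genes was 1.64, against 1.35 for the other ranked genes. Here 52 of the 200 (26%) still differed at least 2-fold, against 49 of the 3605 (1.36%). These values also went into the choice and support nothing.

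The gene at the head of the list was ENSBTAG00000052217, with a ratio of 451. It measured 562, 387 and 3815 CPM in CTR 1, 2 and 3, and 740, 864 and 232 CPM in Nanuq 1, 2 and 3. In Cryotop 1, 2 and 3 it measured 45612, 100.1 and 400 CPM. Cryotop 1 was far above all other pools, CTR 3 came next, and all 3 groups overlapped. Its group means were 1588 ± 1930 CPM in CTR, 612 ± 335 in Nanuq and 15371 ± 26190 in Cryotop (SD, n = 3 each), so in CTR and Cryotop the SD exceeded the mean. The value in Cryotop 1 was 12.0 times that in CTR 3 and 456 times that in Cryotop 2.

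High levels of this gene were not limited to Cryotop 1. With that library left out, the 8 others still spanned a 37.7-fold range, from Cryotop 2 to CTR 3. Without Cryotop 2 the ratio was 196. Among all genes at 50 CPM or more in Cryotop 1, it alone was at least 10-fold above every other library, and no gene was that far above in any of the other 8. The gene raised the share of counts held by the 200 genes to 6.45% in Cryotop 1, where the other libraries had 2.00% to 2.56%. The remaining 199 genes held 1.89% of all counts in Cryotop 1 and 1.93% to 2.29% in the others. These totals still include ENSBTAG00000052217, which alone held 4.56% of counts in Cryotop 1. Of 4029 other abundant genes, 3 had a log2 profile with a correlation of at least 0.9 to it over the 9 libraries, and none of these was a member. The most alike, ENSBTAG00000008743, had a correlation of 0.95, or 0.82 without Cryotop 1, and a ratio of only 2.39. All these points share the libraries' totals.

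ENSBTAG00000051364 had the next largest ratio, 10.1, and was high in CTR 2. It measured 237, 808 and 128 CPM in CTR 1, 2 and 3, and 226, 139 and 231 CPM in Nanuq 1, 2 and 3. The Cryotop libraries had 175, 162 and 79.1 CPM. CTR 2 stood alone above the others, and the remaining CTR pools lay just above and just below the range of Nanuq. Without CTR 2 the ratio was 2.97, and without Cryotop 3 it was 6.27.

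ENSBTAG00000051730 had a ratio of 7.24 and the same highest and lowest pools. Its values were 46.1, 152 and 33.2 CPM in CTR 1, 2 and 3, and 35.0, 51.7 and 51.3 CPM in Nanuq 1, 2 and 3. In Cryotop 1, 2 and 3 they were 33.5, 70.6 and 20.1 CPM. CTR 2 was highest and Cryotop 3 lowest, and Cryotop 2 was second highest. Without CTR 2 the ratio was 3.39, and without Cryotop 3 it was 4.47.

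The members with the highest mean count after ENSBTAG00000052217 varied far less. ENSBTAG00000016563 averaged 1059 CPM and had a ratio of 2.72. It measured 957, 506 and 1228 CPM in CTR 1, 2 and 3, 919, 1045 and 1342 CPM in Nanuq, and 1044, 1114 and 1376 CPM in Cryotop. Only CTR 2 was far from the rest, and without it the ratio was 1.50. ENSBTAG00000005654 averaged 628 CPM with a ratio of 2.46. It measured 686, 918 and 696 CPM in CTR 1, 2 and 3, 373, 519 and 695 CPM in Nanuq, and 474, 569 and 727 CPM in Cryotop. CTR 2 was again at an extreme, here the highest, and Nanuq 1 was the lowest.

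The 200 genes did not all follow a single pattern. Average-linkage clustering of their log2 profiles, cut into 4 clusters, gave sets of 89, 60, 35 and 16 genes. Clusters were built from the same values and were not tested. Between the mean profiles of the clusters, correlations over the 9 libraries ran from -0.65, for the clusters of 89 and 60 genes, to 0.10.

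**Figure D3:**
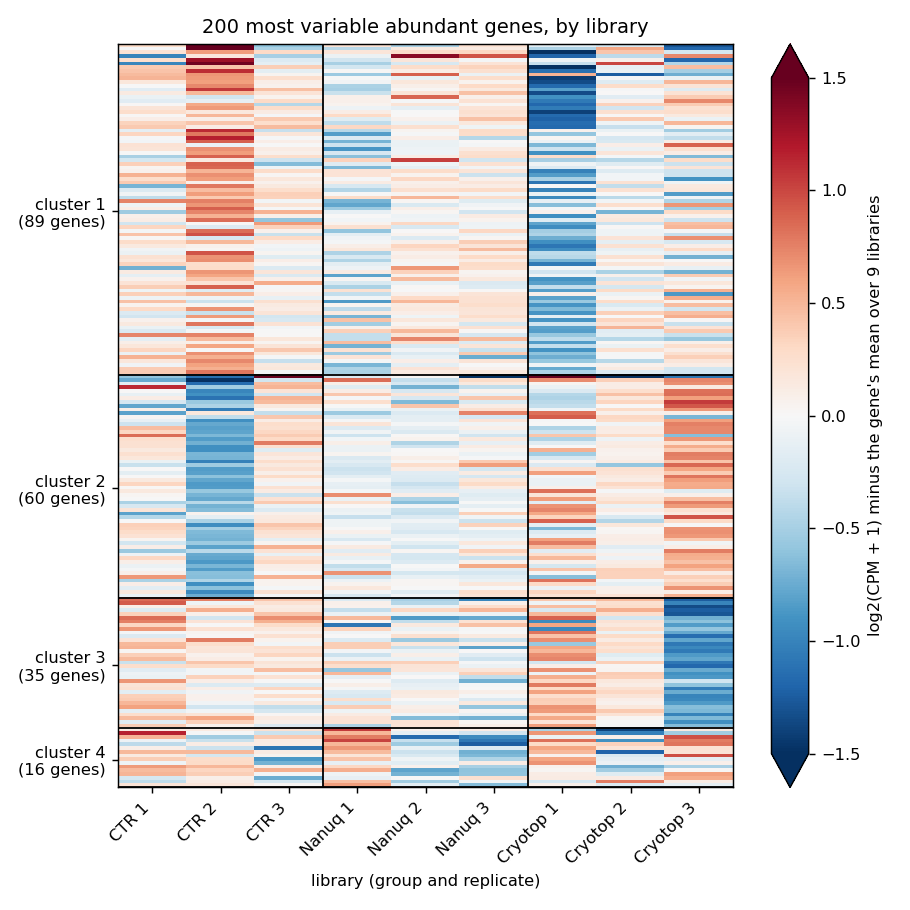
Each row is 1 of the 200 genes and each column a library, and colour gives log2(CPM + 1) minus the gene's mean over 9 libraries (red above, blue below, limits at 1.5). The cluster of 89 genes is red in CTR 2 and blue in Cryotop 1, that of 60 is blue in CTR 2, and that of 35 is blue in Cryotop 3.

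The cluster of 89 genes was high in CTR 2 and low in Cryotop 1. Its median distance from each gene's own mean was 0.60 on the log2 scale in CTR 2 and -0.73 in Cryotop 1. In CTR 2, 76 of the 89 genes lay above their own mean, and in Cryotop 1, 83 lay below it. Medians in the other 7 libraries stayed between -0.15 (Nanuq 1) and 0.16 (Nanuq 3). Cryotop 2 and Cryotop 3 had medians of -0.02 and 0.06. The lowest library was Cryotop 1 for 52 of the 89 genes, Nanuq 1 for 17 and Cryotop 3 for 11. ENSBTAG00000051364 and ENSBTAG00000051730, given above, have the largest ratios in this cluster, and both were lowest in Cryotop 3, not in Cryotop 1.

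The cluster of 60 genes was low in CTR 2 and high in Cryotop 3. The median was -0.73 in CTR 2, where 58 of 60 genes lay below their own mean, and 0.56 in Cryotop 3, where 54 lay above it. Cryotop 1 was mixed, with 30 genes above and 30 below. ENSBTAG00000052217 has the largest ratio in this cluster but does not show that pattern. Its extremes were in Cryotop 1 and Cryotop 2, and its values in Cryotop 3 and CTR 2 were close, at 400 and 387 CPM. ENSBTAG00000015792 comes next, with a ratio of 5.04. It measured 38.9, 22.8 and 53.6 CPM in CTR 1, 2 and 3, and 119, 51.5 and 81.1 CPM in Nanuq 1, 2 and 3. In Cryotop 1, 2 and 3 it measured 110, 85.1 and 111 CPM. All Cryotop pools lay above all CTR pools, while Nanuq 2 lay within the CTR range. That single value kept the gene from being left out with the 225 whose Nanuq and Cryotop pools do not overlap CTR. Without CTR 2 the ratio was 3.01.

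The cluster of 35 genes was low in Cryotop 3. All 35 lay below their own mean there, with a median of -0.86, and 28 lay above it in Cryotop 1, with a median of 0.46. These Cryotop pools thus stood on opposite sides, and Cryotop 2 was between them at 0.20. ENSBTAG00000039719 has the largest ratio here, 4.26. It measured 146, 137 and 110 CPM in CTR 1, 2 and 3, and 70.0, 57.2 and 40.6 CPM in Nanuq. Cryotop 1, 2 and 3 gave 107, 114 and 33.6 CPM. CTR lay above all Nanuq pools, and the Cryotop pools were on both sides of Nanuq.

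ENSBTAG00000005892 is next in this cluster, with a ratio of 3.75. It measured 125, 62.8 and 76.9 CPM in CTR 1, 2 and 3, and 69.2, 48.4 and 69.4 CPM in Nanuq. Cryotop 1, 2 and 3 gave 62.5, 77.9 and 32.6 CPM. CTR 1 was high and Cryotop 3 low, and the other 7 pools lay between 48.4 and 77.9 CPM. Without CTR 1 the ratio was 2.35.

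The cluster of 16 genes was the only one whose largest medians were in Nanuq. Its median was 0.49 in Nanuq 1 and -0.54 in Nanuq 3, with 13 of 16 genes above their own mean in the former and 13 below it in the latter. ENSBTAG00000009786 leads it with a ratio of 5.41. It measured 152, 152 and 163 CPM in CTR 1, 2 and 3, and 287, 145 and 150 CPM in Nanuq. Cryotop 1, 2 and 3 gave 99.7, 52.3 and 151 CPM. Most pools lay near 150 CPM, with Nanuq 1 above and Cryotop 1 and 2 below. Without Nanuq 1 the ratio was 3.08, and without Cryotop 2 it was 2.86.

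ENSBTAG00000001219 follows in the same cluster, with a ratio of 4.51. It measured 165, 72.4 and 58.7 CPM in CTR 1, 2 and 3, and 105, 67.4 and 60.0 CPM in Nanuq. In Cryotop 1, 2 and 3 it measured 117, 35.8 and 51.2 CPM. Replicate 1 was the highest of each group, and the groups overlapped.

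**Figure D4:**
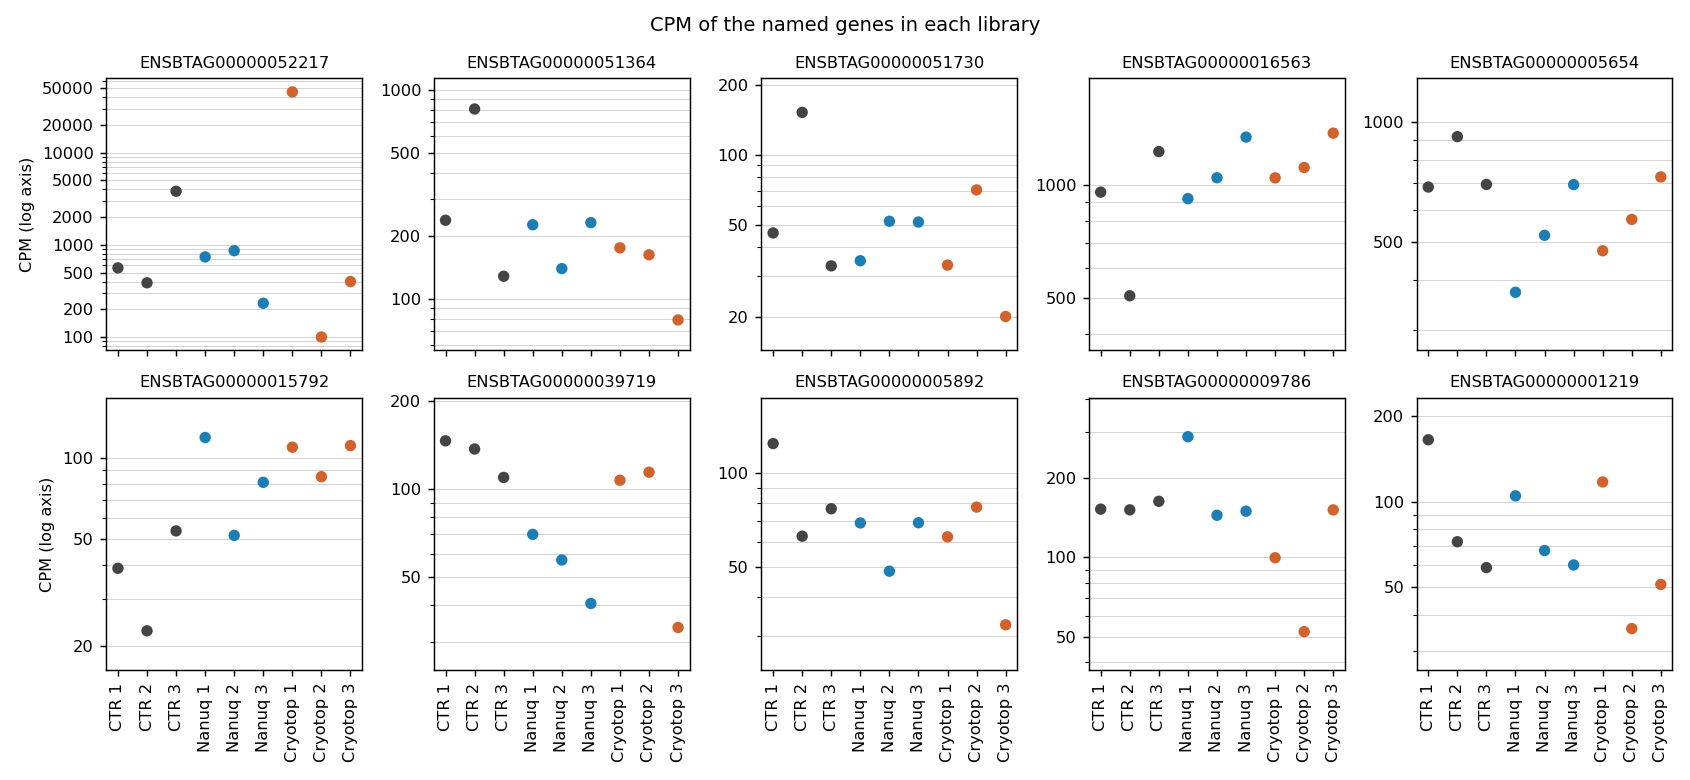
CPM (vertical axes, log scale, a scale per panel) of the 10 named genes in each of 9 libraries (horizontal axes), with CTR in grey, Nanuq in blue and Cryotop in orange. ENSBTAG00000052217 spans 100.1 to 45612 CPM, and in most panels 1 or 2 pools stand apart while the groups overlap.

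Other abundant genes were compared with the mean profile of each cluster. Of the 3830, 120 had a correlation of at least 0.8 with that of the cluster of 89, and 62 one of -0.8 or below. The numbers were 184 and 84 for the cluster of 60, 83 and 46 for that of 35, and 20 and 7 for that of 16. Of the clusters' own members, 27, 31, 16 and 3 reached 0.8. These are descriptions over 9 points that share library totals. The fit was loose even inside the clusters, where the median correlation of a member with its own cluster's mean profile was 0.68, 0.81, 0.79 and 0.66 in the same order.

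Within groups, the 200 genes varied most between Cryotop pools and least between Nanuq pools. The ratio of the highest to the lowest of 3 pools had a median of 2.04 in Cryotop, 1.62 in CTR and 1.36 in Nanuq. For the other ranked genes the order was the same, at 1.32, 1.29 and 1.20. Within-group differences reached 2-fold for 103 of the 200 genes (51.5%) in Cryotop, 50 (25%) in CTR and 18 (9%) in Nanuq. Among the other ranked genes the shares were 2.94%, 1.11% and 0.305% in the same order. Only 4 of the 200 genes reached 2-fold within all 3 groups. For 57 genes no group spanned 2-fold. Of the 200, 109 (54.5%) had their widest range in Cryotop, 68 (34%) in CTR and 23 (11.5%) in Nanuq. For the other ranked genes the order was the same, at 45.5%, 38.5% and 16.0%. Without Cryotop 1 the same choice gave 54 genes with the widest range in Cryotop, without Cryotop 3 it gave 70, and without CTR 2 it gave 166. For any gene, a group that lost a pool can only keep or narrow its range, which by itself moves the number in these directions. Leaving out Cryotop 2 gave 96, and leaving out CTR 1 or CTR 3 gave 119 each. Of the variance of log2 CPM, a median of 26.5% lay between group means for the 200 genes and 22.7% for the others.

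Whether variable genes vary again in pools that had no part in choosing them was examined by leaving out 1 group at a time. The same rule was applied to the 6 libraries of 2 groups, and the range was measured in the third. The 200 genes chosen this way were in part other genes. Those also in the list described here numbered 95 without Cryotop, 101 without CTR and 147 without Nanuq. With CTR left out, the step that drops genes whose Nanuq and Cryotop pools all lie on one side of CTR could not be applied, so more genes were ranked there. Genes chosen without Cryotop had a median ratio of 1.44 among the Cryotop pools, against 1.32 for the 3178 other genes ranked. Chosen without CTR, they had 1.35 among the CTR pools, against 1.29 for 3816 others. Without Nanuq the values were 1.27 and 1.20, the latter over 3263 genes. The medians of the chosen genes were thus 1.10, 1.05 and 1.06 times those of the others in the order given. Genes are not replicates, so no test was made of these medians.

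The tail differed more than the middle. At least 2-fold ranges in the group left out were seen for 37 of 200 chosen genes in Cryotop (18.5%, against 4.59% of the others), 14 in CTR (7%, against 1.94%) and 10 in Nanuq (5%, against 0.460%). Most chosen genes thus stayed under a 2-fold range in the pools that had not been used. In the libraries that chose them, their median ratio had been 2.22 without Cryotop, 2.39 without CTR and 2.60 without Nanuq. Chosen genes were often of lower count, and the part of count in these differences was not tested. Medians are also given for genes averaging 50 to 100 CPM and for those at 100 CPM or more. The chosen genes had the higher median each time, by the least in CTR in the lower class. In the lower class the medians were 1.51 against 1.37 in Cryotop, 1.33 against 1.31 in CTR and 1.28 against 1.23 in Nanuq. In the upper class they were 1.37 against 1.27, 1.42 against 1.26 and 1.25 against 1.17.

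**Figure D5:**
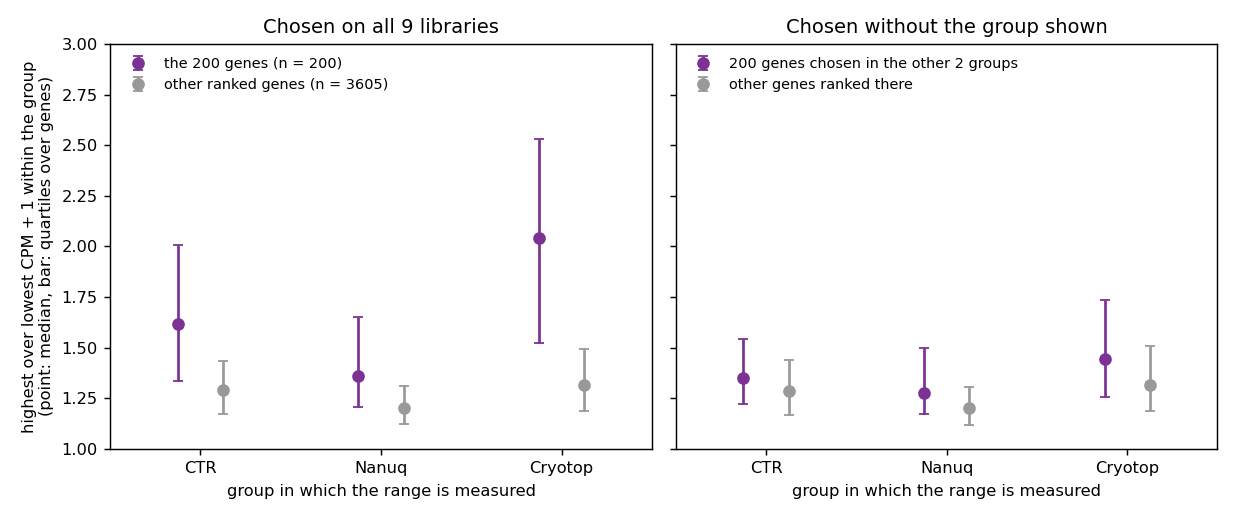
Ratio of highest to lowest CPM + 1 within a group (vertical axis; points are medians and bars quartiles over genes) for the 200 genes or the genes chosen without that group (purple) and the other ranked genes (grey). On the left, where all 9 libraries chose the genes, the purple medians are 1.62, 1.36 and 2.04 in CTR, Nanuq and Cryotop, and on the right, where the group shown took no part, 1.35, 1.27 and 1.44.

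Comparisons between groups were fitted on the whole table, and the members' counts are given beside those over all genes. The rule used these libraries, so nothing is read from them. CTR enters the comparisons of both devices. Between Cryotop and CTR, the quasi-likelihood test of edgeR called 0 of the 200 genes at a Benjamini-Hochberg adjusted p under 0.05, with 0% called among all 14005 genes tested. Without adjustment, 56 members lay at a p under 0.05, as did 7.40% of all genes. DESeq2 called 4 of the 199 members it gave an adjusted p, where it called 0.640% of 8127 genes. The groups did not overlap for 32 members, 12 higher and 20 lower in Cryotop, and for 13.9% of abundant genes. The abundant genes include the 225 that the rule left out, whose pools in both devices do not overlap CTR. No member can be among them, so the share among ranked genes is lower.

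Between Nanuq and CTR edgeR called 0 members and 0% of all genes. Without adjustment, 22 members and 4.27% of all genes lay at a p under 0.05. DESeq2 gave only 147 members an adjusted p and called 1, where it called 0.797% of 3511 genes. The groups did not overlap for 20 members, 7 higher and 13 lower in Nanuq, and for 15.6% of abundant genes, the 225 again included. Between Nanuq and Cryotop both tools called 0 members and 0% of all genes, and DESeq2 gave 199 members an adjusted p. By edgeR 24 members lay at an unadjusted p under 0.05, and 4.06% of all genes did. The groups did not overlap for 19 members, 8 higher and 11 lower in Nanuq, and for 10.6% of abundant genes.

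For any difference among the 3 groups edgeR called 0 members and 0% of all genes. Here 45 members and 5.03% of all genes lay at an unadjusted p under 0.05, and DESeq2 called 1 of 199 members, where it called 0.196% of 9191 genes. The member with the smallest p for Cryotop against CTR was ENSBTAG00000015792. Its log2 fold change was 1.41 and its adjusted p 0.434 by edgeR, and 0.0167 by DESeq2. Over all alternatives its adjusted p ran from 2.18e-08, in edgeR without a filter on low counts, to 1 without Cryotop 1 and 3.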

How the data were processed

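The authors deposited raw counts per gene for 27607 Ensembl bovine genes in 9 libraries of polyadenylated RNA, not normalized. The submitters' processing notes name STAR 2.7.0e with build ARS-UCD1.2, Trim Galore 0.6.0, DESeq2 1.26.0 and FastQC. They name no counting tool and no strand setting in the sources used here, so counts of antisense or overlapping genes may include each other's reads. Columns were assigned to samples by name, 0 columns were left unused and 0 rows lacked an identifier. Libraries of a group differed beyond sampling noise (chi-square per degree of freedom of 21 or more).

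The 200 genes were chosen on CPM from column sums, as described at the head of the results. Members and lists were chosen with earlier results of these data known. The gene table used for names (37063 genes, ARS-UCD2.0) holds 0 Ensembl identifiers, so the 24 gene lists written for this work, markers included, were not tested. Named are the 3 members with the largest ratios, the 3 with the highest means, the 2 with the largest ratios in each cluster and the 2 genes on either side of the end of the list. ENSBTAG00000008743 was named after its values were seen.

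Clusters used 1 minus the Pearson correlation of log2(CPM + 1). Group comparisons used edgeR's quasi-likelihood F test (filterByExpr, TMM scaling, robust estimation, all 9 libraries in one fit), with DESeq2 as an alternative, so p-values refer to the spread between pools. Both the choice and the edgeR fit were also run on simulated counts, whose spread was set by hand and not taken from these data. Those runs do not show how either performs here. Alternatives changed the scaling, filters, added value, measure of variation, depth and libraries. R 4.3.3, edgeR 4.0.16, DESeq2 1.42.0, Python 3.11.15 and SciPy 1.17.1 were used.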

Additional observations from a re-analysis of the deposited data

How the results depend on the processing

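Which genes make up the list depends on the minimum level more than on scaling. Of the 200 genes, 177 were chosen again with TMM-scaled library sizes, 179 with DESeq2-style size factors, 197 and 190 with 0.1 or 5 CPM added, and 168 with counts thinned to the smallest total. With a minimum mean of 20 CPM 32 were, with 100 CPM 55, and with no minimum 1, since genes of lower count then enter or leave the list. Leaving out 1 library at a time kept 121 (without CTR replicate 2) to 189 of them. Without Cryotop replicates 1 and 3 together 103 were kept, and also without CTR replicate 2, an alternative added after seeing the data, 60. Leaving out the counts of ENSBTAG00000052217 from the totals, also added later, kept 186. The number of chosen genes with their widest range in Cryotop (109) became 181 with no minimum level. It was 154 with a minimum mean of 20 CPM and 73 with 100 CPM. With 1 library left out it was 54 to 166, where the group of that library kept fewer pools than the others.

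For the ranges in a group that took no part in the choice, the chosen genes stayed above the others under every alternative run. With 1 library left out, the ratio of the medians was 1.01 to 1.07 in CTR, 1.03 to 1.07 in Nanuq and 1.04 to 1.11 in Cryotop. In Cryotop it was 1.04 with a minimum mean of 100 CPM. The value of 1.01 came without CTR replicate 1.

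For members called between groups, edgeR's 0 changed when genes of low count were not filtered. It became 22 for any difference, 19 between Cryotop and CTR, 6 between Nanuq and CTR and 4 between the devices. Over all 18783 genes tested in that fit, 62, 58, 19 and 7 were called in the same order. In that fit the prior degrees of freedom were infinite, so the spread of a single gene had no weight. DESeq2 gave 1, 4, 1 and 0 in the same order. The edgeR fit with replicate numbers as a block gave 1 for Cryotop against CTR (ENSBTAG00000015792, adjusted p of 0.0160) and 0 for the others. That gene was the only 1 called among all 14005 tested. The labels do not say what a replicate number marks. Deviations from group means correlated at -0.04 to 0.23 between libraries of the same number and at -0.25 to 0.17 between others, and 7 of 9 libraries correlated best with their own number, a hint from the data and not from the design. With 1 library left out, the counts ran from 0 to 1 for Nanuq against CTR, where ENSBTAG00000039719 was called without Cryotop replicate 3 at an adjusted p of 0.0245 (1.68e-06 to 1 over all alternatives), and were 0 for the other comparisons. Without Cryotop replicates 1 and 3, added after seeing the data, 1 member was called for Nanuq against CTR and 1 for any difference. The lone Cryotop library is then assumed to vary like the other groups. Genes under 50 CPM were not described. Counting error was largest in Cryotop 1, which had the smallest total. This library held the lowest value of 56 members (28%) and the highest of 35 (17.5%), against 22.5% and 13.1% of all ranked genes. The part of depth in this was not tested.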
